A study of Drosophila melanogaster with 18 samples.

Results

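The developmental change from 0 to 4 h after pupariation was compared between Drosophila melanogaster animals depleted of the ecdysone receptor and control animals, as the interaction of strain and time. The members are the 12 arrays at 0 and 4 h of the 18 in the series, with 3 arrays in each of 4 groups. The interaction of a probe set is the EcRi change (4 h minus 0 h) minus the control change (4 h minus 0 h) on the log2 scale, so a positive value means that the level at 4 h relative to 0 h was higher in EcRi than in control animals. The other 6 arrays, EcRi and control animals at -4 h, were not used by the interaction and are brought in once as separate samples.

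EcRi animals carried hs-EcRi-11, a transgene under a heat-shock promoter that makes double-stranded RNA against the common region of EcR. They were held at 37 °C for 1 h at 24 and again at 18 h before pupariation, and the study states that all of them arrested as elongated prepupae. The sample titles call EcRi animals EcR mutants, although no allele of EcR is given. Control animals were of the w1118 strain. Whether controls were heated too is not stated in these sources, so strain, heat and loss of EcR cannot be told apart in any comparison of EcRi with control animals. Each RNA was made from 10 whole animals and hybridised to 1 Affymetrix array. In RNA of whole animals, fewer cells of a type and less RNA per cell cannot be told apart.

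EcR pairs with Usp to form the receptor for 20-hydroxyecdysone (20E), the steroid that times the moults and metamorphosis. A pulse of 20E triggers pupariation, when the larva shortens and its cuticle hardens into the puparium. In the hours that follow, the titre of 20E falls, the salivary glands have expelled their glue and turn to late puff genes, the larval midgut begins to be replaced, and the imaginal discs evert. Without bound hormone EcR and Usp can also repress their targets, so that loss of the receptor can raise or lower a transcript.

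The EcRi 0 h replicate 1 array stood apart. Its correlation with the nearest other array of the 12 was 0.909, against 0.974 to 0.995 for the other 11 arrays, and the leading axis of the spread within groups, which held 73.8% of that spread, set it at 0.746 against -0.365 and -0.382 for the other EcRi 0 h arrays. EcRi 4 h replicates 1 and 3 lay on the same side of that axis at 0.12 and 0.191, with EcRi 4 h replicate 2 at -0.312, whereas control arrays lay within -0.0688 and 0.068. Counts are therefore given with all 12 arrays and without EcRi 0 h replicate 1. Leaving out all 3 of these arrays leaves EcRi 4 h replicate 2 alone in its group, so no counts are given for that fit.

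The targeted gene showed no interaction. The array held 2 probe sets for EcR, and the brighter gave 510, 533 and 520 in EcRi animals at 4 h and 387, 548 and 487 at 0 h, against 467, 484 and 517 in controls at 4 h and 478, 448 and 485 at 0 h. For this probe set EcRi and control arrays overlapped at both times. The dimmer gave 215, 192 and 215 in EcRi animals at 4 h and 288, 215 and 208 at 0 h, against 156, 161 and 167 in controls at 4 h and 152, 204 and 184 at 0 h, so its EcRi arrays lay above its control arrays at both times. The interaction was 0.09 ± 0.15 (log2 ± SE) for the brighter probe set and -0.03 ± 0.20 for the dimmer one, neither of which was called. Where the probes lie relative to the region made double-stranded was not examined, and these values do not check the labels.

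A call required an adjusted p below 0.10 together with a 1.5-fold change (limma, Benjamini-Hochberg over all 13966 probe sets). The variance of a probe set was pooled over the 4 groups, so its EcRi and control changes carry the same standard error. Because EcRi arrays were more spread on the axis above, this shared error may be too large for controls and too small for EcRi animals. It bears on which changes were called in 1 strain only. An interaction was called for 271 probe sets, 1.94% of those tested, of which 158 were higher in EcRi (1.13%) and 113 lower (0.809%). The EcRi change from 0 to 4 h was called for 116 probe sets (53 higher and 63 lower at 4 h, 0.379% and 0.451%; 0.831% in all) and the control change for 543 (221 higher and 322 lower, 1.58% and 2.31%; 3.89% in all), or 870 in a fit to the 6 control arrays alone. Quantile normalization turned the split of EcRi changes to 85 higher and 54 lower. Without EcRi 0 h replicate 1 the 3 counts were 525 (3.76%), 406 and 744, and the interaction then had more lower calls (298, 2.13%) than higher (227, 1.63%). Without the 3 arrays named above it was called for 701 (5.02%), 445 higher (3.19%) and 256 lower (1.83%), so neither direction prevailed across these fits.

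The probe sets called with all arrays were less sensitive to that array than the total was. Of the 271 called interactions, 262 were called in the same direction without EcRi 0 h replicate 1, and none changed sign. A call held in each of the 12 fits that left out 1 array for 177 of them, 113 higher and 64 lower. The median standard error of the interaction was 0.227 with that array and 0.153 without it. Intensities under 91.58, the 20th percentile of the table, were set to that floor, and in 23 of the 271 called interactions (12 higher and 11 lower) at least 1 group had all 3 arrays at or under it, so that the size of those interactions was not measured.

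**Figure D1:**
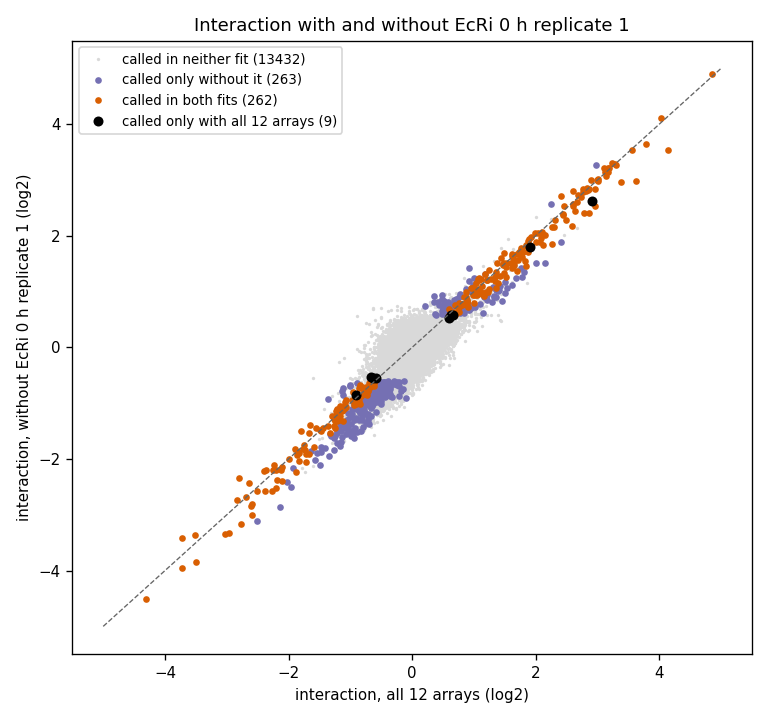
Interaction of each probe set (log2) with all 12 arrays on the horizontal axis and without EcRi 0 h replicate 1 on the vertical axis, coloured by the fit in which it was called. The 262 probe sets called in both fits lie near the dashed line of equality, while 263 were called only without that array, 189 of them lower in EcRi.

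Control changes were sorted by what EcRi animals did. A change was classed as lost where the interaction was called against it and the EcRi change was not called, and as reduced or opposed where the EcRi change was called in the same or the opposite direction. It was classed as kept where both strains were called in the same direction and the 95% interval of the interaction lay within 1.5-fold either way. Of the 543 control changes, 213 were lost (76 rises and 137 falls), 12 were reduced, 2 were opposed and 9 were kept, which leaves 307 not resolved. The interaction was called against 41.8% of the control changes. These classes repeat the calls that define them and carry no test of their own.

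The lost falls had a median EcRi change of -0.16 and a median control change of -2.0, and the lost rises had medians of -0.01 in EcRi and 1.42 in control animals. Of the 213 lost changes, 194 were lost in both fits, with and without EcRi 0 h replicate 1. The 307 changes not resolved had EcRi changes whose median was 31.73% of the control change, and 273 of them ran in the same direction in both strains. For these, a missing call does not show that the strains changed alike.

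**Figure D2:**
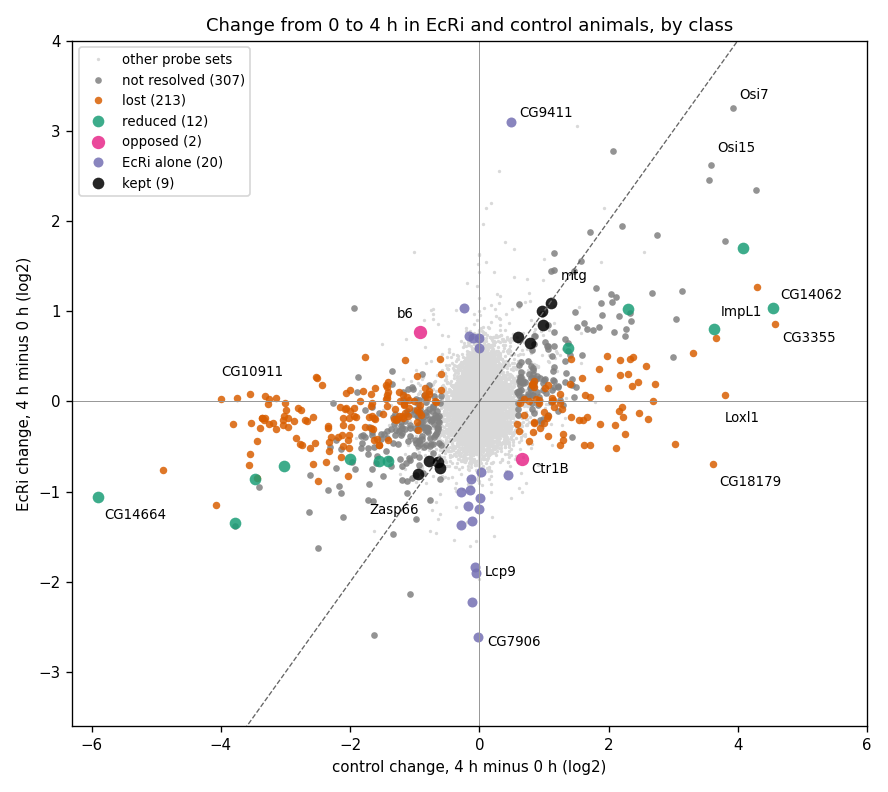
EcRi change from 0 to 4 h (vertical, log2) against control change (horizontal, log2) of each probe set, coloured by class, with the dashed line marking equal change in both strains. The 213 lost changes lie along the horizontal axis, the 9 kept changes lie on the dashed line, and the 20 changes called in EcRi animals alone lie along the vertical axis.

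The glue genes of the salivary gland, which encode the secretion that fixes the puparium to its substrate, stayed high in EcRi prepupae. Of 9 glue and intermoult genes measured, 5 had a higher interaction and none a lower one with all arrays, and the median change was -0.18 in EcRi and -2.53 in control animals, beside medians of 0 over all probe sets. The intermoult gene ng3 was called lower without EcRi 0 h replicate 1, at -1.22, and not with all arrays, at -0.81. Sgs4 read 4852, 5731 and 5290 in EcRi animals at 4 h and 5515, 6496 and 5952 at 0 h, against 117, 142 and 149 in controls at 4 h and 1229, 2043 and 969 at 0 h. Every EcRi array was thus above every control array, and a fall was called in controls alone, so that the gap widened (interaction 3.14 ± 0.34, adjusted p = 0.0017).

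Sgs3 gave the same picture at a higher level, with 11681, 11856 and 12651 in EcRi animals at 4 h and 9963, 10285 and 9634 at 0 h, against 346, 334 and 336 in controls at 4 h and 1705, 2624 and 1682 at 0 h (interaction 2.81 ± 0.21, adjusted p = 0.00019). Sgs5, Sgs7 and Sgs8 had interactions of 2.84, 2.99 and 2.68. Sgs1 was not called at 1.24 ± 0.31 (adjusted p = 0.13), although its EcRi arrays, at 4076 to 5046, lay above its control arrays, at 208 to 696, at both times. At -4 h, on arrays that the interaction did not use, mean Sgs3 was 9273 in EcRi and 11670 in control animals and mean Sgs4 was 5952 in EcRi and 6267 in control animals, so the strains were near each other 4 h before pupariation.

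The L71 late puff genes, which follow the glue genes in the same gland and encode small secreted peptides, rose in controls and not in EcRi animals. Of 9 measured, 5 had a lower interaction, and the median change was -0.06 in EcRi and 1.60 in control animals. Eig71Ef read 173, 131 and 148 in EcRi animals at 4 h and 136, 128 and 137 at 0 h, against 5689, 5605 and 5906 in controls at 4 h and 1604, 1140 and 745 at 0 h (interaction -2.20 ± 0.33, adjusted p = 0.013). All EcRi arrays lay below all control arrays at both times. Eig71Eg, Eig71Eh and Eig71Ei, its neighbours in the gene order, had interactions of -2.39, -2.26 and -2.68. The EcRi arrays of all 3 genes were below the floor of 91.58 apart from EcRi 0 h replicate 1 for Eig71Eg and Eig71Eh, at 131 and 103, and without that array these interactions were -2.22 and -2.20. The EcRi change was thus not measured for these genes, and each interaction stands for the control change alone. For Eig71Eh 2 of the control 0 h arrays, at 80.7 and 87.9, were also below the floor, so its control rise is a lower bound.

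One member of the L71 list ran the other way. Eig71Ee read 4589, 5225 and 4966 in EcRi animals at 4 h and 5645, 5525 and 4524 at 0 h, against 706, 750 and 742 in controls at 4 h and 2477, 3550 and 3374 at 0 h. A fall was called in controls alone (interaction 2.00 ± 0.19, adjusted p = 0.00091), and its EcRi arrays lay above its control arrays at 0 and 4 h. At -4 h the order was reversed, with means of 3912 in EcRi and 9167 in control animals (EcRi effect -1.23, called). Eig71Ed (-1.80, adjusted p = 0.07) lost its call in 9 of the 12 fits with 1 array left out, and Eig71Ea was not called with all arrays (-1.22, adjusted p = 0.21). Eig71Ee, Eig71Ed and Eig71Ea were all added after their values were seen.

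Most Jonah proteases of the larval midgut fell in controls and fell less in EcRi animals. Of 14 measured, 10 had a higher interaction and none a lower one with all arrays, 12 were called lower at 4 h in controls and 4 in EcRi animals, and the median change was -0.56 in EcRi and -2.21 in control animals. Jon25Biii read 9421, 9202 and 8640 in EcRi animals at 4 h and 10832, 10445 and 10224 at 0 h, against 154, 132 and 151 in controls at 4 h and 1193, 2197 and 1215 at 0 h (interaction 3.13 ± 0.29, adjusted p = 0.0007). No EcRi array overlapped a control array. Jon99Fii had 11623, 11447 and 11658 in EcRi animals at 4 h and 13160, 14431 and 13634 at 0 h, against 1370, 916 and 901 in controls at 4 h and 8708, 10974 and 10390 at 0 h (interaction 3.01 ± 0.22).

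Some Jonah genes kept part of the fall. Jon66Ci read 5170, 4263 and 4213 in EcRi animals at 4 h and 7704, 8728 and 8297 at 0 h, against 161, 147 and 143 in controls at 4 h and 1218, 2084 and 1825 at 0 h. Both strains were called lower at 4 h, by -0.86 ± 0.18 in EcRi and -3.47 ± 0.18 in control animals. Jon44E, added after its values were seen, changed by -1.02 ± 0.30 in EcRi animals, which was not called, and by -1.12 ± 0.30 in controls, with an interaction of 0.10 ± 0.42. Jon66Cii, also added after its values were seen, ran the other way. It read 317, 415 and 345 in EcRi animals at 4 h and 541, 898 and 938 at 0 h, against 157, 162 and 171 in controls at 4 h and 239, 271 and 267 at 0 h. It was called lower at 4 h in EcRi animals (-1.11) and not in controls (-0.66), and its interaction was -0.45 with all arrays (adjusted p = 0.81) and called lower without EcRi 0 h replicate 1 (-0.70, adjusted p = 0.048). Jon99Fi had the largest interaction of the family, 4.15 ± 0.79 (adjusted p = 0.038), but 3.53 without EcRi 0 h replicate 1, which read 937 against 3388 and 3352 for the other EcRi 0 h arrays. Its call held in 8 of the 12 fits with 1 array left out and was lost without control 0 h replicates 1 or 3 or control 4 h replicates 2 or 3 (adjusted p of 0.10 to 0.12).

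Other gut proteases were mixed. Of 13 gut trypsins, alphaTry, epsilonTry and betaTry had higher interactions (2.10, 2.26 and 0.99) and the other 10 were not called. alphaTry read 3631, 4088 and 3576 in EcRi animals at 4 h and 5152, 5615 and 5360 at 0 h, against 567, 531 and 570 in controls at 4 h and 3651, 3724 and 2894 at 0 h, so only the controls at 4 h were far below the rest. None of 12 amylases and maltases had a called interaction with all arrays, and 1 was higher without EcRi 0 h replicate 1. Probe sets of such families, among them those with the suffix _f_at, may read near-identical copies, and the split among members is uncertain.

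Several of the largest interactions belonged to genes known only by number. CG10911 read 3457, 4811 and 3399 in EcRi animals at 4 h and 4196, 3338 and 3816 at 0 h, against 232, 257 and 248 in controls at 4 h and 4148, 3746 and 3918 at 0 h (interaction 4.03 ± 0.19, adjusted p = 1.4e-05). The strains overlapped at 0 h, and at -4 h they averaged 3783 in EcRi and 3691 in control animals, so a gap was seen at 4 h only. CG7290 had 7983, 7270 and 7565 in EcRi animals at 4 h and 8426, 7289 and 7551 at 0 h, against 270, 346 and 302 in controls at 4 h and 2975, 2761 and 3081 at 0 h (interaction 3.24 ± 0.13). CG32302 and CG10910 had interactions of 3.79 and 3.20. CG15044 was at 3.62, and at 2.98 without EcRi 0 h replicate 1, which read 253 against 964 and 953 for the other EcRi 0 h arrays. Its control 4 h arrays, at 76.2, 91.4 and 66.9, were all below the floor, so the size of its control fall is a lower bound. The call was lost without control 4 h replicate 2 (adjusted p = 0.10) and with the floor at the 40th percentile. CG14957 was at 3.39 with control 4 h arrays at 55.4, 87.4 and 66.2 and 1 EcRi 0 h array at 73.9 below the floor, so its size was not measured, and its call held in 3 of the 12 fits with 1 array left out.

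**Figure D3:**
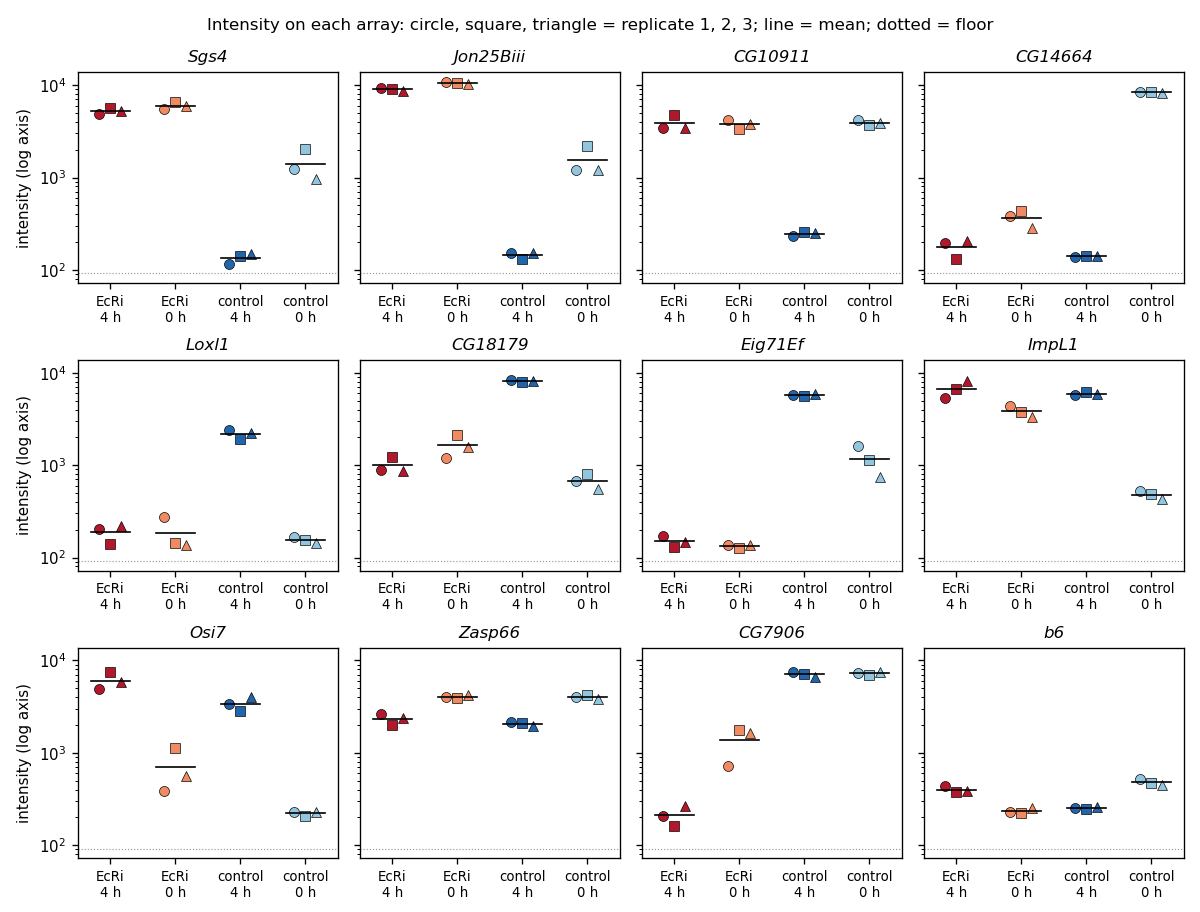
Intensity of 12 genes on each array (log axis), with EcRi animals at 4 h and 0 h left of controls at 4 h and 0 h, replicates as symbols, group means as lines and the floor of 91.58 dotted. Sgs4, Jon25Biii and CG10911 were called lower at 4 h in controls alone, and Loxl1, CG18179 and Eig71Ef were called higher in controls alone. Osi7 and Zasp66 changed in both strains, CG7906 was called lower in EcRi animals alone, and b6 changed in opposite directions.

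The control rises with an interaction called against them had no single family beyond L71. Some of them were reduced, and an EcRi change without a call does not show that EcRi animals did not rise. Loxl1, a lysyl oxidase that cross-links extracellular matrix, read 203, 141 and 218 in EcRi animals at 4 h and 272, 144 and 137 at 0 h, against 2416, 1922 and 2214 in controls at 4 h and 168, 156 and 145 at 0 h (interaction -3.73 ± 0.38, adjusted p = 0.0012). Only the controls at 4 h stood above the rest. Among 13 basement membrane and matrix genes it was the one called with all arrays, and 1 was higher and 2 lower without EcRi 0 h replicate 1. Adk3, an adenylate kinase, had 293, 537 and 336 in EcRi animals at 4 h and 139, 302 and 295 at 0 h, against 1651, 1307 and 1537 in controls at 4 h and 116, 132 and 107 at 0 h (-2.96 ± 0.46). Its EcRi change of 0.70 ± 0.32 was not called.

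The lowest interaction, -4.30 ± 0.32 (adjusted p = 0.0002), was that of CG18179. It read 886, 1232 and 875 in EcRi animals at 4 h and 1186, 2132 and 1578 at 0 h, against 8399, 8003 and 8056 in controls at 4 h and 672, 803 and 546 at 0 h. EcRi animals were thus above controls at 0 h and below them at 4 h, and the gap crossed. CG8329, its neighbour in the gene order, had an interaction of -3.50, whereas CG3355 and CG14062 had -3.72 and -3.52. CG3355 read 4031, 6517 and 7212 in EcRi animals at 4 h and 2305, 3936 and 3468 at 0 h, against 13250, 13502 and 13937 in controls at 4 h and 649, 875 and 320 at 0 h, and was far above controls in EcRi animals before its rise.

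Further genes known by number rose in controls to levels that EcRi animals did not reach. CG11816 read 987, 1491 and 1440 in EcRi animals at 4 h and 509, 1168 and 1168 at 0 h, against 8765, 8122 and 8490 in controls at 4 h and 928, 895 and 754 at 0 h (interaction -2.77 ± 0.44, adjusted p = 0.016). CG9331 had 706, 926 and 1083 in EcRi animals at 4 h and 1682, 1163 and 1061 at 0 h, against 7204, 7772 and 7380 in controls at 4 h and 2136, 1835 and 1289 at 0 h (-2.64 ± 0.34). In both, the control 4 h arrays lay above all others. CG12481 and CG7367 had interactions of -3.03 and -2.80, and all 4 of these calls held in each fit with 1 array left out.

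Smaller lists held 1 or 2 control rises each that were classed as lost. Drsl6, a drosomycin-like peptide, had an interaction of -2.52 ± 0.24 and was the one called of 13 antimicrobial peptide genes. NimC4, a receptor for apoptotic cells, read 98.0, 142 and 104 in EcRi animals at 4 h and 126, 107 and 92.3 at 0 h, against 280, 271 and 304 in controls at 4 h and 79.3, 65.8 and 73.4 at 0 h (-1.56 ± 0.21). The control 0 h arrays were below the floor, so its control rise of 1.63 is a lower bound. GstD3, a glutathione S-transferase, and ZnT35C, a zinc transporter of the Malpighian tubules, had interactions of -1.86 and -1.75.

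Among the ecdysone regulators few interactions were called. Of 14 nuclear receptors on the list, Eip78C (E78) alone was called, at 1.85 ± 0.13 (adjusted p = 0.00014). It read 105, 102 and 114 in EcRi animals at 4 h and 125, 135 and 124 at 0 h, against 196, 214 and 207 in controls at 4 h and 893, 1007 and 766 at 0 h. EcRi arrays lay below control arrays at both times, and the gap narrowed because the control level fell towards the EcRi level. The interaction is therefore not a sign of a raised level in EcRi animals. Hr3 was not called (-0.96 ± 0.48), with control 4 h arrays at 489, 459 and 198.

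Of 13 early ecdysone regulators, CG11275 (1.08) was higher and vri, a bZIP transcription factor, was lower (-0.83), and these calls held in 8 and 5 of the 12 fits with 1 array left out. br, the Broad gene, was not among those called. Of 6 ecdysone-inducible enzymes and carriers, MsrA, a methionine sulfoxide reductase, was called higher (adjusted p = 0.086), a call that held in 3 of those 12 fits. None of 9 ecdysteroid biosynthesis genes was called.

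Some positive interactions belonged to genes that were low in EcRi animals at both times and far higher in controls at 0 h than at 4 h. The clearest was CG14664, with 195, 132 and 207 in EcRi animals at 4 h and 388, 431 and 285 at 0 h, against 137, 142 and 143 in controls at 4 h and 8541, 8474 and 8226 at 0 h. At 4 h the strains were close, and at 0 h they were far apart, which gave the highest interaction of all at 4.85 ± 0.26 (adjusted p = 2.8e-05). CG13606 had 262, 237 and 268 in EcRi animals at 4 h and 310, 305 and 260 at 0 h, against 357, 307 and 258 in controls at 4 h and 3033, 3566 and 2833 at 0 h (3.17 ± 0.19). CG42269 was alike at 3.10 ± 0.14. Controls were above EcRi animals before pupariation too: at -4 h CG14664 averaged 404.9 in EcRi and 6583 in control animals (EcRi effect -4.13), and CG13606 averaged 253.8 in EcRi and 983.6 in control animals (-1.95).

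The called interactions were therefore sorted by the EcRi effects (EcRi minus control) at 0 and 4 h of the same fit, a grouping made after the values were seen. The EcRi effect was called for 10.4% of all probe sets at 4 h and 5.76% at 0 h. In 95 of the called interactions the gap opened, with an effect called at 4 h and not at 0 h, and in 64 a gap called at 0 h widened in the same direction. In 63 it closed, being called at 0 h and not at 4 h, in 12 it narrowed, in 18 it crossed to the other side, and in 19 neither effect was called. Of the 158 higher interactions 54 were closings, with median effects of -1.44 at 0 h and 0.01 at 4 h, and 53 were widenings, with medians of 1.48 and 3.37. Of the 113 lower interactions 65 were openings, with medians of 0.03 at 0 h and -1.34 at 4 h. Without EcRi 0 h replicate 1 there were 202 openings, 93 widenings and 97 closings.

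The arrays at -4 h gave a reading that the interaction did not use. There the EcRi effect was called for 433 of all probe sets, 3.1% of those tested, in a fit to those 6 arrays alone. It was called for 35.4% of the 158 probe sets with a higher interaction (17 higher and 39 lower in EcRi, beside 1.98% and 1.12% of all) and for 19.5% of the 113 with a lower one (15 higher and 7 lower). By type, 28 of the 63 closings and 23 of the 64 widenings were called at -4 h, against 4 of the 95 openings. The count at -4 h rests on few arrays and varied between 130 and 536 with 1 array left out: it was 242 without control replicate 2, and 168, 130 and 238 without EcRi replicates 1, 2 and 3.

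**Figure D4:**
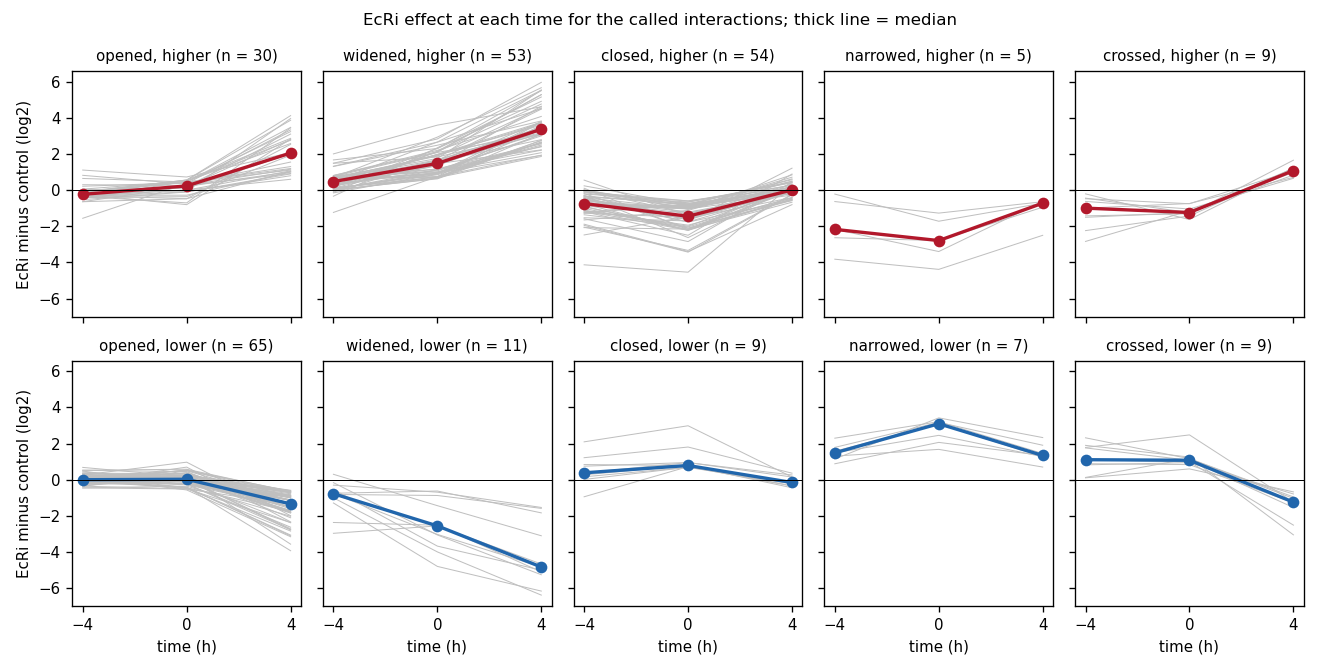
EcRi effect (EcRi minus control, log2) at -4, 0 and 4 h for called interactions, by what the gap between strains did from 0 to 4 h, with higher interactions in the upper row, lower ones in the lower row, and medians as thick lines. The 65 lower openings had a median near 0 at -4 and 0 h and -1.34 at 4 h, and the 54 higher closings had medians of -0.74, -1.44 and 0.01.

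The 12 reduced changes were 5 rises and 7 falls. CG2444 read 1162, 1762 and 1387 in EcRi animals at 4 h and 3349, 3950 and 3540 at 0 h, against 617, 646 and 581 in controls at 4 h and 7850, 9214 and 8451 at 0 h (interaction 2.44 ± 0.20, adjusted p = 0.0003). It crossed, with EcRi animals below controls at 0 h and above them at 4 h. CG12057 had 2857, 3065 and 2764 in EcRi animals at 4 h and 4561, 4594 and 5157 at 0 h, against 412, 395 and 383 in controls at 4 h and 3200, 3435 and 3077 at 0 h (2.31 ± 0.09). Its strain difference passed both thresholds at 4 h alone.

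Among the reduced rises, CG10853 read 712, 1115 and 888 in EcRi animals at 4 h and 211, 339 and 288 at 0 h, against 6088, 4668 and 5840 in controls at 4 h and 327, 299 and 348 at 0 h (-2.39 ± 0.29). The strains were close at 0 h and apart at 4 h. CG14062 had 275, 375 and 343 in EcRi animals at 4 h and 200, 146 and 141 at 0 h, against 5183, 4868 and 4933 in controls at 4 h and 211, 289 and 158 at 0 h, where the strains also overlapped at 0 h. Of the 12, 11 were again reduced without EcRi 0 h replicate 1, and CG6431 was lost.

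Few genes for detoxifying enzymes were called in controls, and in both directions. Of 83 cytochrome P450 genes 4 were called higher at 4 h and 6 lower. Of 67 glutathione and UDP-glycosyl transferases 1 was higher and 3 lower. Over all probe sets 1.58% were higher and 2.31% lower in controls. Cyp9f2, a cytochrome P450, read 1536, 2511 and 1526 in EcRi animals at 4 h and 2581, 3741 and 3852 at 0 h, against 292, 304 and 289 in controls at 4 h and 1639, 1814 and 1555 at 0 h (interaction 1.61 ± 0.30, adjusted p = 0.034). Its fall was lost on 12 arrays and reduced without EcRi 0 h replicate 1, and the interaction was called in 11 of the 12 fits with 1 array left out. Ugt301D1 and Ugt37A3, both UDP-glycosyltransferases, had interactions of 1.65 and 2.15. Both falls were lost, with the strain difference called at 0 h and not at 4 h. Ugt37A3 read 146, 300 and 142 in EcRi animals at 4 h and 143, 196 and 184 at 0 h, against 195, 213 and 166 in controls at 4 h and 840, 803 and 738 at 0 h, so that the controls at 0 h lay above the other arrays of the 12. Among the rises, GstD3 and Cyp310a1 changed by 2.33 and 1.25 in controls and were classed as lost, with interactions of -1.86 and -1.27. Some EcRi arrays of Cyp310a1 were below the floor, and its call rests on the floor chosen. It was lost with the floor at the 5th or the 40th percentile and with log2 of the value plus 50. Over the settings run its interaction was as small as -0.43.

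Of 17 imaginal disc and epidermal ecdysone genes, 3 were called higher at 4 h in EcRi and 3 in control animals. ImpL1 alone had a called interaction with all arrays (-2.83 ± 0.22, adjusted p = 0.00025), with 5297, 6685 and 8141 in EcRi animals at 4 h and 4331, 3767 and 3351 at 0 h, against 5794, 6245 and 5820 in controls at 4 h and 526, 488 and 429 at 0 h. The strains overlapped at 4 h, and the interaction came from a high level in EcRi animals at 0 h. Without EcRi 0 h replicate 1, 6 of the 17 had a lower interaction. One of them was dy, a ZP-domain protein of the apical matrix, which rose in both strains, by 2.35 ± 0.35 in EcRi and 4.28 ± 0.35 in control animals. Its interaction was -1.93 with all arrays (adjusted p = 0.15) and -2.16 without that array (adjusted p = 0.067).

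Of 11 genes for enzymes of cuticle tanning, 2 were called lower at 4 h in EcRi animals, and 4 were called lower and 1 higher in controls. Ddc, the dopa decarboxylase, had the one called interaction with all arrays (2.96 ± 0.53, adjusted p = 0.028). It read 816, 1669 and 909 in EcRi animals at 4 h and 898, 1930 and 2398 at 0 h, against 394, 326 and 306 in controls at 4 h and 3823, 4021 and 4072 at 0 h. EcRi animals were below controls at 0 h and above them at 4 h. e, which encodes the enzyme that joins beta-alanine to dopamine, was called lower at 4 h in both strains, by -1.62 ± 0.21 in EcRi and -2.50 ± 0.21 in control animals (interaction 0.87 ± 0.30, not called).

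Few control changes met the criterion for being kept, which also needs a narrow interval. Among the 307 changes not resolved the median half-width of the interval was 0.67 (log2), which is wider than 1.5-fold. Many of them could thus not have been kept at any interaction, and the number kept does not show how many changes were alike. The 9 kept were Zasp66, MESR6, LysD and a probe set with 2 gene symbols among the falls, and mtg, amd, CG11498, CG15169 and pwn among the rises. Zasp66, a Z-disc protein of muscle, read 2602, 2009 and 2405 in EcRi animals at 4 h and 3964, 3935 and 4243 at 0 h, against 2138, 2079 and 1971 in controls at 4 h and 3966, 4189 and 3858 at 0 h. The 4 h arrays of both strains lay below all 0 h arrays, and the interaction was 0.16 with a 95% interval of -0.12 to 0.44. mtg, which encodes a secreted chitin-binding protein, had 407, 566 and 520 in EcRi animals at 4 h and 207, 261 and 227 at 0 h, against 340, 374 and 366 in controls at 4 h and 170, 176 and 152 at 0 h (interaction -0.02, interval -0.44 to 0.40).

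Of the 9 kept changes, 5 were kept in both fits, namely Zasp66, MESR6, mtg, CG11498 and the probe set with 2 symbols. The number kept was 22 without EcRi 0 h replicate 1. For amd, which encodes a protein related to dopa decarboxylase, the kept rise came from the dimmer of a pair of probe sets; the brighter changed by 0.37 ± 0.29 in EcRi and 0.04 ± 0.29 in control animals and was not called in either. LysD, a lysozyme gene of the gut, is read by a family probe set.

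Counting without the interval, 50 probe sets were called in both strains in the same direction, and 143 without EcRi 0 h replicate 1. The Osiris genes, which encode membrane proteins of epithelia that lay down cuticle, held several. Of 24 measured, 7 were called higher at 4 h in EcRi and 5 in control animals, beside 0.379% and 1.58% of all probe sets. None had a called interaction, beside 1.94% of all. Osi7 read 4926, 7417 and 5794 in EcRi animals at 4 h and 382, 1135 and 567 at 0 h, against 3359, 2806 and 4062 in controls at 4 h and 231, 208 and 226 at 0 h. The 4 h arrays were above the 0 h arrays in both strains, with changes of 3.25 ± 0.35 in EcRi and 3.93 ± 0.35 in control animals.

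The interval of the Osi7 interaction, -1.81 to 0.46, was too wide to call the changes alike. Osi15 rose by 2.62 ± 0.18 in EcRi and 3.58 ± 0.18 in control animals (interaction -0.96 ± 0.25, adjusted p = 0.16), and Osi6 rose by 2.77 ± 0.27 in EcRi and 2.07 ± 0.27 in control animals (0.70 ± 0.38). Without EcRi 0 h replicate 1 Osi14 had a higher interaction. Osi6, Osi7 and Osi14 were chosen after their values were seen.

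Further changes called in both strains were found among genes chosen after their values were seen. Snoo, a corepressor of TGF-beta signalling, rose by 1.45 ± 0.12 in EcRi and 1.12 ± 0.12 in control animals, and CG6026 rose by 1.94 ± 0.24 in EcRi and 2.21 ± 0.24 in control animals. l(2)efl, a small heat-shock protein gene, fell by 1.28 ± 0.16 on the log2 scale in EcRi and 2.12 ± 0.16 in control animals. PPO2, a prophenoloxidase of haemocytes, read 1753, 2622 and 1844 in EcRi animals at 4 h and 3536, 4438 and 3289 at 0 h, against 185, 197 and 201 in controls at 4 h and 390, 534 and 422 at 0 h, so both strains fell while EcRi animals stayed far above controls. The 3 genes that the study followed as little affected by EcRi, Pepck1, CG5065 and CG13856, were called higher at 4 h in controls. The study followed them by Northern blot at -4, 0 and 4 h, and reported that both strains induced them normally at puparium formation. The array change from 0 to 4 h is another measure over another time span. They rose by 1.12, 1.85 and 1.62 in controls and by 0.50, 0.82 and 0.87 in EcRi animals, where CG13856 alone was called. Their interactions of -0.61, -1.03 and -0.75 were not called, but the intervals lay below 0 (-1.16 to -0.06, -1.84 to -0.22 and -1.26 to -0.23). All 3 were classed as not resolved, and the missing calls do not show that the strains changed alike.

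**Figure D5:**
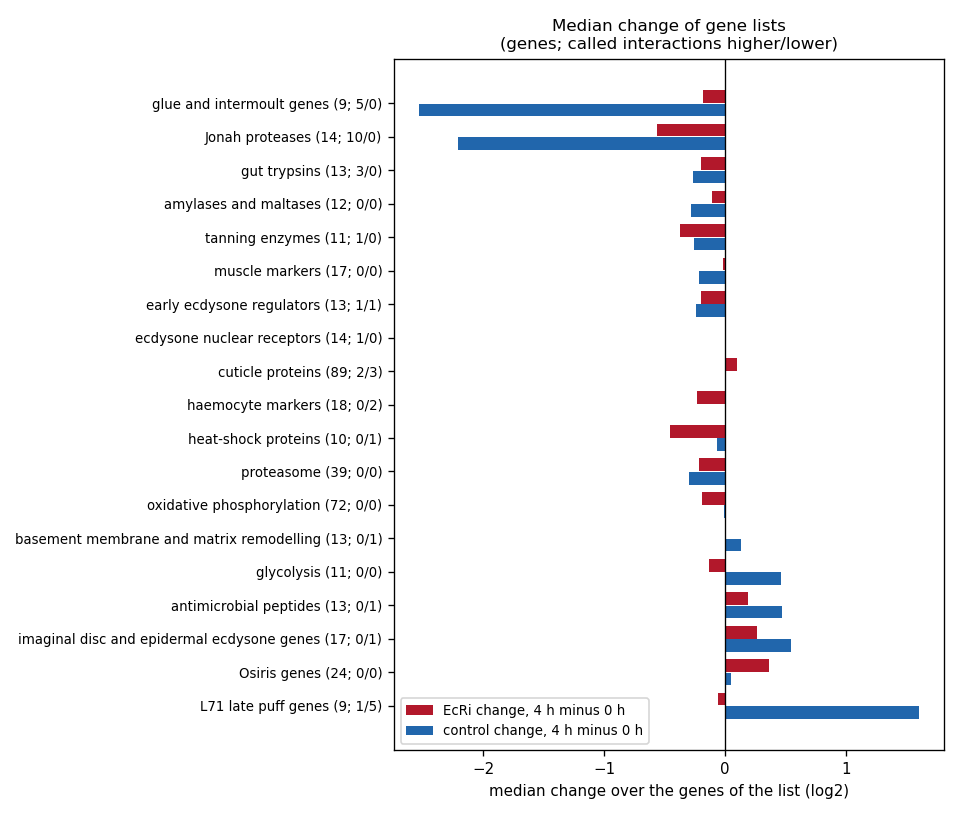
Median change from 0 to 4 h (log2) over the genes of 19 lists, with EcRi animals above controls in each pair of bars; brackets give the number of genes and the called interactions, higher then lower. Glue genes (median -0.18 in EcRi, -2.53 in controls), Jonah proteases (-0.56 in EcRi, -2.21 in controls) and L71 genes (-0.06 in EcRi, 1.60 in controls) differed most between the strains among the lists drawn.

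Changes in EcRi animals alone, with a called interaction and no called control change, numbered 20, of which 6 were rises and 14 falls. Of the 20, 19 were in this class in both fits, and without EcRi 0 h replicate 1 it held 73. CG7906 read 207, 163 and 264 in EcRi animals at 4 h and 710, 1755 and 1622 at 0 h, against 7527, 7170 and 6678 in controls at 4 h and 7325, 6871 and 7506 at 0 h (interaction -2.58 ± 0.45, adjusted p = 0.026). The level in EcRi animals was already far below controls at 0 h and was lower still at 4 h. CG7924, its neighbour in the gene order, was alike at -2.11 ± 0.34.

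CG5171 fell by 1.32 ± 0.12 on the log2 scale in EcRi animals and changed by -0.11 ± 0.12 in controls (interaction -1.21 ± 0.17, adjusted p = 0.0097), with 1923, 2672 and 2360 in EcRi animals at 4 h and 6538, 5468 and 5311 at 0 h, against 8572, 8265 and 7754 in controls at 4 h and 8458, 9347 and 8802 at 0 h. LManVI, a lysosomal alpha-mannosidase gene chosen after its values were seen, had 389, 446 and 377 in EcRi animals at 4 h and 777, 970 and 1026 at 0 h, against 149, 173 and 179 in controls at 4 h and 159, 150 and 197 at 0 h (-1.18 ± 0.20). It was above controls at both times, whereas CG5171 was below them. Other calls of this class, also chosen after their values were seen, depended more on single arrays: Oat (ornithine aminotransferase), Tat (tyrosine aminotransferase) and yellow-e, at -0.85, -0.98 and -1.07, were called in 2, 3 and 4 of the 12 fits with 1 array left out.

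A pair of cuticle protein genes also had a fall called in EcRi animals alone. Lcp9, a larval cuticle protein, read 462, 391 and 493 in EcRi animals at 4 h and 1470, 1413 and 1938 at 0 h, against 163, 155 and 174 in controls at 4 h and 167, 195 and 155 at 0 h. EcRi arrays were above control arrays at both times, and the gap narrowed (interaction -1.76 ± 0.20, adjusted p = 0.0024). Cpr67B fell likewise, with -1.09, a call lost without control 4 h replicate 2 or 3 (adjusted p = 0.11 and 0.10) and with quantile normalization (-0.80, adjusted p = 0.33). Of 89 cuticle protein genes measured 2 had a higher and 3 a lower interaction; Cpr78E was lower at -2.12 and Cpr49Ac higher at 1.51, and both had lost control changes. Without EcRi 0 h replicate 1 there were 3 higher and 6 lower. Over all probe sets 1.13% were higher and 0.809% lower with all arrays, and 1.63% and 2.13% without that array.

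Hsp27, a small heat-shock protein, fell by 1.00 ± 0.09 on the log2 scale in EcRi animals and changed by -0.29 ± 0.09 in controls (interaction -0.71 ± 0.13, adjusted p = 0.033). It read 1320, 1444 and 1649 in EcRi animals at 4 h and 2743, 2823 and 3247 at 0 h, against 4431, 4233 and 4517 in controls at 4 h and 5046, 5290 and 5771 at 0 h, below controls throughout. It was the one called of 10 heat-shock protein genes, and 2 were lower without EcRi 0 h replicate 1. EcRi animals had been heated before pupariation, and the part of that treatment in this change was not tested.

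The largest rise classed as in EcRi animals alone was that of CG9411, with 592, 1775 and 691 at 4 h and 138, 85.4 and 59.4 at 0 h, against 138, 102 and 152 in controls at 4 h and 34.4, 32 and 38.9 at 0 h (interaction 2.61 ± 0.54, adjusted p = 0.06). All control and 2 of the EcRi arrays at 0 h were below the floor, so the rise of either strain is a lower bound and the size of the interaction is uncertain. As deposited, the control 4 h arrays were above the control 0 h arrays as well, and the class rests on the floor: with a floor at the 5th percentile the interaction was 1.49 (adjusted p = 0.47), and with log2 of the value plus 50 it was 1.69 (adjusted p = 0.18), neither called. The call held in 4 of the 12 fits with 1 array left out. Acbp4, an acyl-CoA-binding protein, had 705, 676 and 648 in EcRi animals at 4 h and 390, 435 and 417 at 0 h, against 317, 340 and 348 in controls at 4 h and 346, 357 and 370 at 0 h (0.80 ± 0.07).

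Opposite changes were rare with all 12 arrays, at 2, and numbered 8 without EcRi 0 h replicate 1. b6 read 432, 373 and 387 in EcRi animals at 4 h and 226, 221 and 250 at 0 h, against 255, 243 and 258 in controls at 4 h and 517, 472 and 445 at 0 h. It rose by 0.77 ± 0.07 in EcRi animals and fell by 0.92 ± 0.07 in controls, with no overlap between times in either strain. Ctr1B, a copper transporter, had the reverse pattern, with 808, 873 and 946 in EcRi animals at 4 h and 1515, 1265 and 1325 at 0 h, against 3305, 2793 and 2721 in controls at 4 h and 1945, 2065 and 1585 at 0 h. Without EcRi 0 h replicate 1 b6 was still opposed and Ctr1B was classed as lost. In that fit CG18179 and CG8329 were classed as opposed, with EcRi changes of -0.90 and -0.80.

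Of 17 muscle markers, 7 were called lower at 4 h in controls and none in EcRi animals, and none had a called interaction with all arrays; without EcRi 0 h replicate 1, 3 of them, TpnC73F (1.51), Mlc1 (1.10) and Tm2 (0.69), had a higher one. Of 18 haemocyte markers NimC3 and NimC4 were lower, and NimC3 was not called without EcRi 4 h replicate 3. None of 7 larval serum and fat body genes, 12 neuron markers, 29 testis and germline markers, 39 proteasome genes, 72 oxidative phosphorylation genes, 37 cytoplasmic and 64 mitochondrial ribosomal protein genes, or 20 autophagy genes was called with all arrays or without EcRi 0 h replicate 1. At 1.94% called over all probe sets, lists of this size may hold none, so these counts do not set them apart. Nor does a missing call show that the strains changed alike. Among the autophagy genes Atg7 was at 1.12 ± 0.55 and Atg18b at 0.76 ± 0.52 with all arrays. For glycolysis none of 11 was called with all arrays and 4 were lower without EcRi 0 h replicate 1. Of 83 cytochrome P450 genes, 2 were higher and 1 lower, and 9 were higher and 1 lower without the 3 arrays.

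Called genes lay next to each other in places. Among 10803 measured genes set in the order of the RefSeq Release 6 table, 243 had a called interaction, and 45 of these stood in 18 runs of neighbours called in the same direction. The longest was Eig71Ef, Eig71Eg, Eig71Eh and Eig71Ei, all lower. Runs of 3 higher genes were Jon25Biii, Jon25Bii and Jon25Bi, then Jon65Aiv, Jon65Aiii and Jon65Aii, then alphaTry, epsilonTry and betaTry, and Sgs5bis, Sgs5 and CG7606. The other 3 such runs held genes without a list here, CG8997, CG7916 and CG7953 on 2L, Muc55B, CG10911 and CG10912 on 2R, and CG7714, CG7715 and CG14302 on 3R. Most named runs are tandem families, whose probe sets may share signal, and the share of this in the runs was not tested.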

How the data were processed

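RNA of whole EcRi and control animals was hybridised to Affymetrix Drosophila Genome Arrays. The deposited values are linear expression intensity per probe set, which the authors normalized and summarised with dChip 1.2; its probe-level model is not stated there. Array medians lay between 222 and 240 over the 12 arrays, and the number of arrays limits the precision. Groups were taken from the labels. The methods describe the triplicates as independent experiments. A single gene symbol was paired with 12443 of the 13966 probe sets; 327 had several and 1196 had none.

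Intensities under the 20th percentile of the whole table (91.58) were set to that floor before log2. A floored value is a bound, and 1336 probe sets never exceeded the floor on the 12 arrays. A mean per group was fitted with limma 3.58.1 in R 4.3.3 (8 residual degrees of freedom, prior 0.578), with two-sided p-values. The study's SAM test has no strain-by-time term, so limma was used at its limits. The EcRi effect at -4 h had a fit of its own to 6 arrays. The code was tested on simulated data.

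In gene lists, each gene was represented by its brightest probe set. Named genes were EcR, the 12 highest and 12 lowest called interactions, up to 6 rises and 6 falls of each class, up to 4 members of each list and 3 genes of the study. Chorion genes and 1 other gene were removed from the cuticle list once the files were seen. The members, lists and rule were chosen with earlier results of these data known, and further genes were added for their values, mostly members of families and genes called in both strains or in EcRi animals alone. Alternatives were the floor, log scale, normalization, filter, variance model, arrays, weights, thresholds and a replicate block.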

Additional observations from a re-analysis of the deposited data

Results flagged for a closer look

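The change from 0 to 4 h differed between the strains, by a test of that difference, at 271 probe sets. Among these, 2 genes were called in opposite directions in EcRi and control animals, b6 with an interaction of 1.70 and Ctr1B with -1.30. The intensity of b6 averaged 397.4 in EcRi animals at 4 h and 232.3 at 0 h, against 251.9 in controls at 4 h and 478.2 at 0 h. Groups of 3 arrays were not searched for outlying values.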

How the results depend on the processing

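With all 12 arrays there were 271 interactions, 116 EcRi changes, 543 control changes, and 213 lost, 12 reduced, 2 opposed, 9 kept and 20 EcRi-alone changes. Under array weights these counts were 1268, 1167, 908, 413, 57, 30, 44 and 438. Without EcRi 0 h replicate 1 and EcRi 4 h replicates 1 and 3 they were 701, 402, 883, 372, 38, 13, 37 and 176. In the same order of results, the fits that left out 1 array gave 191 to 525, 65 to 406, 406 to 744, 161 to 301, 5 to 36, 1 to 8, 4 to 22 and 10 to 73. The highest of each range came without EcRi 0 h replicate 1, and of these arrays it alone moved the interaction count by over 1.5 times. EcRi changes also moved that far without EcRi 4 h replicate 2 (235), control 4 h replicate 2 (77) and EcRi 0 h replicate 3 (65). A 2-fold limit left 53 EcRi and 356 control changes, 5 reduced, 0 opposed, 1 kept and 10 EcRi-alone changes, and an adjusted p under 0.05 left 7 reduced and 1 opposed. All 18 arrays gave 205 EcRi changes and 25 reduced ones. The 433 EcRi effects at -4 h became 214 at a 2-fold limit and 130 to 536 with 1 array left out.

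With the replicate number as a block there were 221 interactions, 71 EcRi changes, 7 reduced, 1 opposed and 4 kept changes, and 9 effects at -4 h. Of the 87 called interactions of named genes, 13 were not called with it, among them those of Jon99Fi, Cpr67B, CG14957 and CG9411. Over the 4 groups of the interaction, deviations of same-numbered samples correlated at over 0.1 in 9 of 18 pairs (r of -0.57 to 0.63). Between control 4 h and 0 h alone all 3 pairs did (0.20 to 0.42). With 3 arrays per group and EcRi 0 h replicate 1 set apart, these values cannot show whether same-numbered samples shared more than a number. Fits to the 6 control arrays, chosen after seeing the data, gave 862 control changes with the block and 870 without it.

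Of 87 called interactions of named genes, 56 were called under every setting run. CG13699 fell to an interaction of 0 with the floor at the 40th percentile, which lies above its values on all 12 arrays. The cause of the other differences was not tested.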
